A study of Homo sapiens with 4 samples.

Results

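The 10 genes described here, CCN1, CCN2, ANKRD1, AMOTL1, AMOTL2, LATS2, AXL, CRIM1, NT5E and F3, are known targets of the transcriptional coactivator YAP and its DNA-binding partners of the TEAD family. Every probe set of the PrimeView array that its annotation pairs with 1 of these genes alone was taken, which gave 27 of 44988 such probe sets and 10 of 18132 genes. The genes were chosen by name with the siRNA and cell line differences of these 4 arrays in view, so those differences are given as a description and carry no test. The samples were Caco-2 and HCT116, 2 established human colorectal cancer cell lines, each transfected for 3 days with either a negative control siRNA or siRNA against BORIS. BORIS, encoded by CTCFL, is the germline relative of the insulator protein CTCF. Both groups of a line therefore went through transfection, and they differed in the siRNA. Each of the 4 groups was measured on 1 array, so a difference between siRNAs within a line has no replicate check, and precision is limited by there being 4 arrays. The comparisons share arrays: that of siRNAs in HCT116 and that of the lines at control siRNA use the same HCT116 control array.

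YAP and its paralog TAZ, the product of WWTR1, enter the nucleus when the Hippo kinases are inactive, bind TEAD proteins there and raise transcription of genes that act in adhesion, matrix and growth. The Hippo kinases LATS1 and LATS2 phosphorylate YAP and TAZ, which keeps them in the cytoplasm. Several of the targets act back on the pathway, among them LATS2 and the angiomotin-like proteins AMOTL1 and AMOTL2, which hold YAP at cell junctions. In intestinal epithelium the pathway is known for its part in regeneration after injury and in colorectal tumour growth.

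Values are the deposited log2 expression values. The level under which 95% of olfactory receptor probe sets of an array lay, 4.80 to 5.15 over the 4 arrays, was taken as background. No fold is given where a probe set lay below background on both arrays compared. A gene was represented by its brightest probe set, that with the highest mean over the 4 arrays, and counted as expressed in a line when that value was at or above the array's median, 5.46 to 5.48, on 1 or both arrays of the line. The epithelial markers EPCAM and KRT8 were bright in both lines, EPCAM between 12.10 and 12.83 and KRT8 between 12.67 and 13.47. Other epithelial markers differed more between the lines. CDH1 lay at 7.01 to 7.64 in Caco-2 and 9.01 to 9.61 in HCT116, and CLDN3 at 10.2 to 10.4 and 6.94 to 7.29. Intestinal markers differed between the lines in both directions: KRT20 lay at 11.59 to 12.04 in Caco-2 and 5.43 to 5.72 in HCT116, and VIL1 at 9.33 to 9.57 and 2.77 to 3.68, while CDX2 lay at 5.19 to 5.77 in Caco-2 and 6.91 to 7.23 in HCT116. The intestinal markers CDX1 and GPA33 lay below background on all 4 arrays. Of 13 epithelial and intestinal markers, 11 were expressed in Caco-2 and 10 in HCT116. In HCT116 8 of the 10 were lower with BORIS siRNA, with a median difference of -0.31. Of all 10631 genes expressed in HCT116, 55.4% were lower by any amount, with a median of -0.048. Fibroblasts also make several of the 10 targets, and all 10 fibroblast markers lay below background on all 4 arrays, with a summed linear level of 123 to 140 per array. Of 6 endothelial markers 4 lay below background on all arrays, as did 3 of 6 blood cell markers. The other endothelial markers, VWF and KDR, and the blood cell markers HBB and CD68 lay above background on all 4 arrays. The blood cell marker LYZ read 13.26 and 13.12 in Caco-2 and lay below background in HCT116. None of the 7 probe sets of CTCFL reached the array median on any array, and 6 lay below background on all 4. The other lay just above background in Caco-2, at 5.07 with control and 5.09 with BORIS siRNA, and below it in HCT116, at 5.07 and 4.93, so a knockdown was not seen on these arrays. The median of the 24 poly-A spike-in control probe sets, RNAs added before labelling, was 7.94 with BORIS and 7.0 with control siRNA in HCT116, 0.94 apart. In Caco-2 it stood at 6.07 and 6.2. The ACTB control probe sets, which compare the 3' with the 5' end of a transcript, differed by 1.34 with control and 1.47 with BORIS siRNA in HCT116, and by 1.05 and 0.97 in Caco-2. The part of these array differences in the values below was not tested.

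The promoters are shown first, because TEAD proteins bind the letters GGAATG and these occur in the windows of some members and not of others. The RefSeq promoter table, of build GRCh38.p14, runs from 250 bases before to 50 bases after an annotated start and held 10 windows for 8 of the 10 genes, all except CCN1 and CRIM1. GGAATG was searched on both strands. Of the 10 windows, 5 held it, 1 each of CCN2, ANKRD1, AMOTL2, LATS2 and AXL, where 14% of all 35116 windows of this length hold it. The windows with the most matches and that of AMOTL2, the gene with the lowest siRNA difference of brightest probe sets, are printed 5′ to 3′ along the gene, with the match in capitals, which read CATTCC where the match is on the opposite strand. They lie at chr6:131951323-131951622 (minus strand) for CCN2, chr10:90921038-90921337 (minus strand) for ANKRD1 and chr3:134374398-134374697 (minus strand) for AMOTL2.
CCN2: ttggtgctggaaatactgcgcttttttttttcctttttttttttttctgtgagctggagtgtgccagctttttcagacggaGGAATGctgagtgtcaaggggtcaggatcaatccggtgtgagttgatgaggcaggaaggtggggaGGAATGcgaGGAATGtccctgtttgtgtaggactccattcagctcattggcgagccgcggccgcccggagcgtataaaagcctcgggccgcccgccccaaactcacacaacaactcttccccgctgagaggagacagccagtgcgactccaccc
ANKRD1: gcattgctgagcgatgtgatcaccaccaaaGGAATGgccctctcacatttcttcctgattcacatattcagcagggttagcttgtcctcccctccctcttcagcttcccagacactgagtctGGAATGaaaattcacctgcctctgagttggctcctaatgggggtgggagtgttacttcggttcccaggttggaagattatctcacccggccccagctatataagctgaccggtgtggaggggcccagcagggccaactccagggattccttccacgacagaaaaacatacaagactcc
AMOTL2: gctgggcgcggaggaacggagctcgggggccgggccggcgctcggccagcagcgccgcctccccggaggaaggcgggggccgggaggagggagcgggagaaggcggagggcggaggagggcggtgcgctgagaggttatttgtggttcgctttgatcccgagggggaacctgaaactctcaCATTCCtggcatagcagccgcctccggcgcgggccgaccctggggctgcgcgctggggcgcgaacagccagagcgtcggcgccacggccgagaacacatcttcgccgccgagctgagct

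CCN2 held 3 matches, which began 169, 104 and 95 bases before the start, and 0.128% of all windows hold 3 or more. ANKRD1 held 2, at 220 and 128 bases before the start, and 1.37% of all windows hold 2 or more. AMOTL2 held 1, at 69 bases before the start in the window printed, and its other window held 0. LATS2 and AXL held 1 each, shown with 10 bases on either side because the rest of their windows holds none. The window of LATS2 lies at chr13:21061537-21061836 (minus strand) and its match begins at base 10 after the start, and that of AXL lies at chr19:41226505-41226804 (plus strand) with the match 212 bases before the start, AXL having a second window with 0 matches.
LATS2: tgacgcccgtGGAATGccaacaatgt
AXL: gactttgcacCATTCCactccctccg

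The windows of AMOTL1, NT5E and F3 held no GGAATG, which says only that these letters are not in those 300 bases. AP-1 factors, which often act beside TEAD proteins, bind TGAGTCA or TGACTCA. The looser TGANTCA, with any letter at N, was searched, and 7.71% of all windows hold it. ANKRD1 held it 195 bases before the start, as TGATTCA. F3 held it 223 and 210 bases before the start, as TGAATCA and TGAGTCA. Only the last of these has G or C at N. The CArG box, which serum response factor binds, was in none of the 10 windows and in 1.29% of all windows. TATAAA stood 32 bases before the start of CCN2 and, on the opposite strand, 28 bases before that of F3, and 11.5% of all windows hold it.

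**Figure D1:**
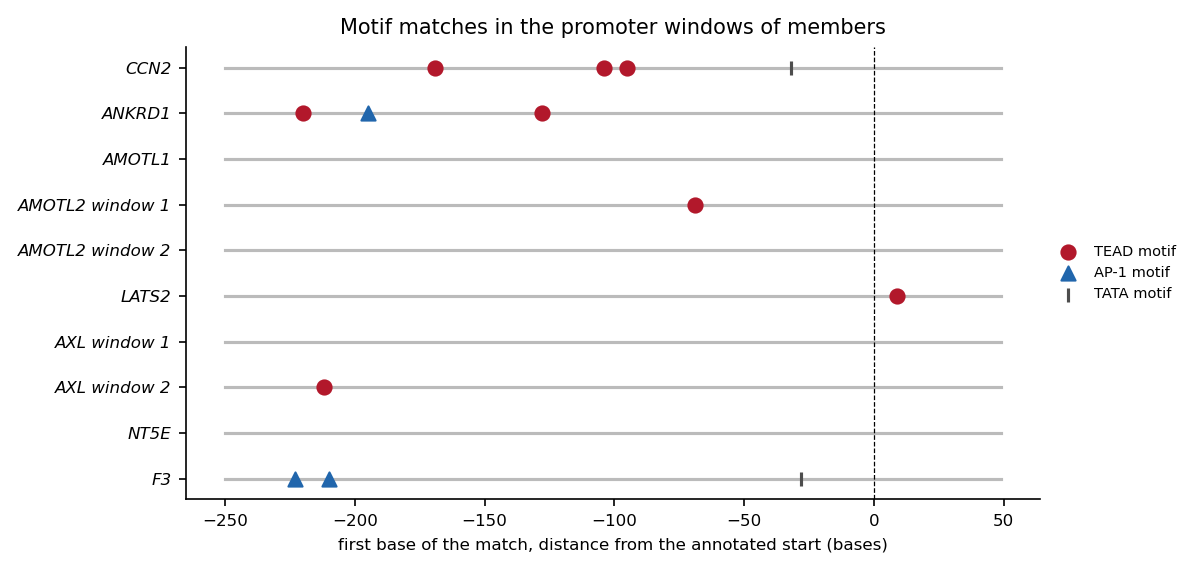
Matches to the TEAD, AP-1 (searched as the looser TGANTCA) and TATA motifs in the 10 promoter windows of 8 genes. The horizontal axis is the distance of the first base of the match from the annotated start in bases. Grey lines are the windows. CCN2 carries 3 TEAD matches before the start and ANKRD1 carries 2.

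The comparison of siRNAs in HCT116 asked how the targets differed when BORIS was targeted. Every member that could be measured was lower with BORIS siRNA: 9 of 9 expressed members, where 55.4% of the 10631 genes expressed in HCT116 were lower by any amount. At 2-fold, meaning -1 on the log2 scale, 3 of the 9 were lower, AMOTL2, CCN2 and AXL, where the share over all expressed genes was 1.45%. None of the 9 was higher, where 44.5% of expressed genes were higher by any amount and 0.583% at 2-fold or more. The median difference of the 9 was -0.65, against -0.048 over all expressed genes, and -0.59 over all 10 members with no filter. Because the members were listed with these differences known, nothing is read from these counts. With a gene taken as the mean of all its probe sets, 7 members were expressed and lower, and 1 of them, CCN2, was lower at 2-fold. AMOTL2 and LATS2 were not among the 7, since their means lay under the array median and they no longer counted as expressed. They stood at -0.62 and -0.052, and AXL stood at -0.67 and CRIM1 at -0.50. For these genes the mean includes probe sets below background. CCN1 stood at -0.34 and F3 at -0.41.

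CCN2 encodes a secreted matrix-associated protein that is the most widely used readout of YAP activity. Its brightest probe set read 7.12 with control and 5.80 with BORIS siRNA in HCT116, a difference of -1.32 or 2.5-fold. The other CCN2 probe sets read 7.13 and 5.47, a difference of -1.67 or 3.17-fold, and 6.39 and 5.25, a difference of -1.14 or 2.20-fold. In HCT116 all 3 were thus above background and lower by over 2-fold. In Caco-2 the same 3 probe sets lay below background on both arrays, between 3.44 and 4.98 with control and between 4.30 and 4.60 with BORIS siRNA, so no fold is given there. Among the 10631 genes expressed in HCT116, CCN2 had the 38th lowest difference.

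CCN1, the paralog of CCN2 and like it a secreted protein that binds integrins, differed far less. Its brightest probe set read 6.52 and 6.37 with control and BORIS siRNA in HCT116, -0.15 apart, and 6.73 and 6.92 in Caco-2, a difference of 0.19. The other read 6.49 and 5.97 in HCT116, a difference of -0.52, and 6.49 and 6.93 in Caco-2, a difference of 0.44. Both probe sets were therefore higher with BORIS siRNA in Caco-2 and lower in HCT116, by no more than 1.44-fold in either line. The lowest of the 4 arrays was HCT116 with BORIS siRNA for both probe sets.

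ANKRD1, an ankyrin repeat protein of the nucleus and the muscle sarcomere, had 1 probe set, which read 2.76 with control and 2.87 with BORIS siRNA in Caco-2 and 2.91 and 2.99 in HCT116. It lay below background on all 4 arrays, and no fold is given.

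**Figure D2:**
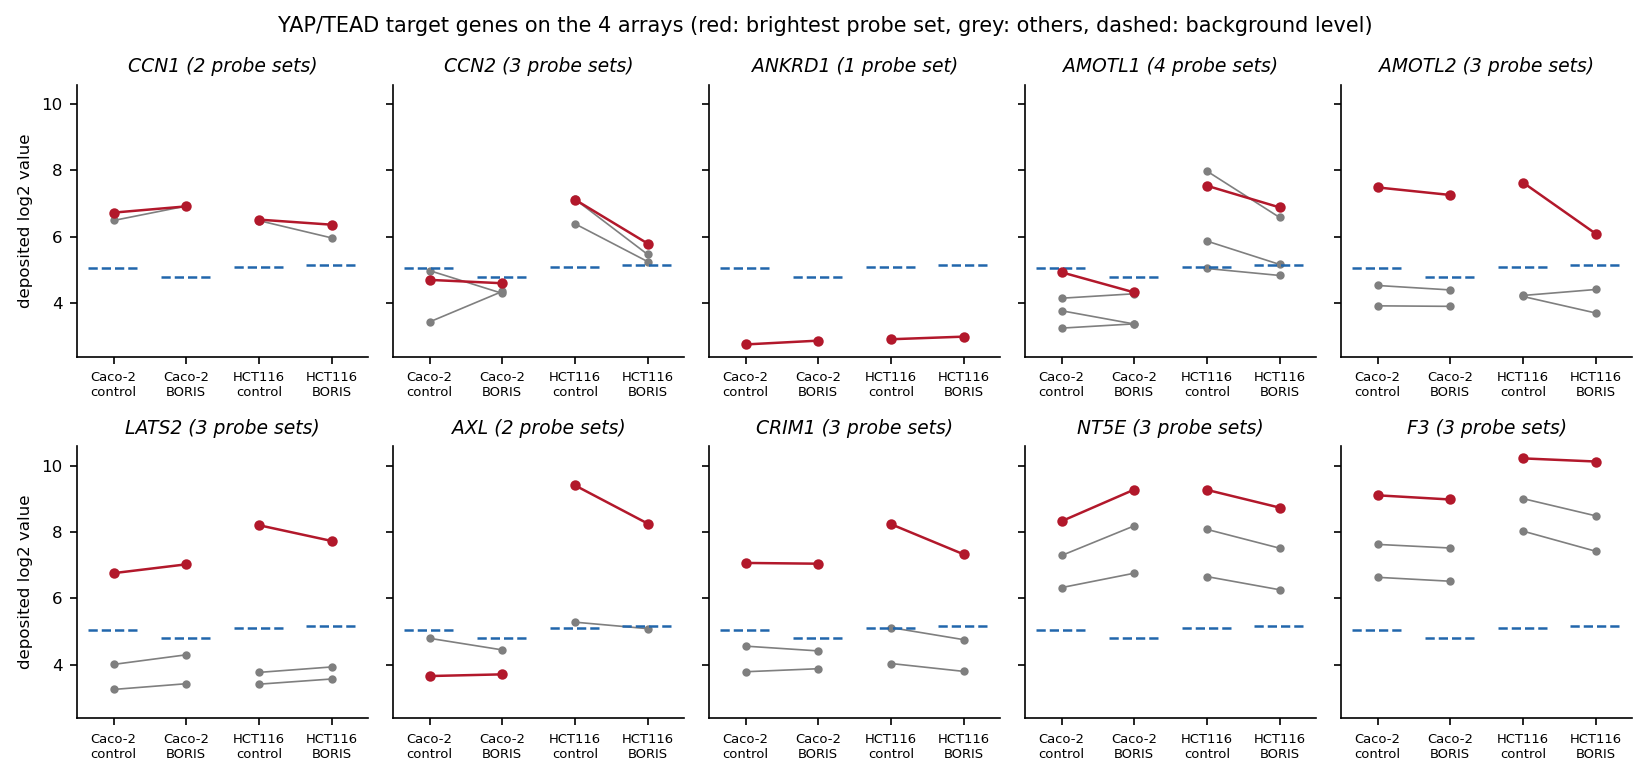
Deposited log2 values (vertical axis) of all 27 probe sets of the 10 genes on the 4 arrays (horizontal axis), with the probe sets of a gene joined within each cell line; red marks the brightest probe set, grey the others and the dashed lines the background level of each array. The brightest probe sets of CCN2, AMOTL1 and AXL lie below background in Caco-2 and above it in HCT116, and ANKRD1 lies below it on every array.

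Among the targets that act back on the pathway, AMOTL2 had the lowest difference of brightest probe sets in HCT116, at rank 14 from the lowest of 10631 genes. Its bright probe set read 7.64 with control and 6.10 with BORIS siRNA, a difference of -1.54 or 2.91-fold. In Caco-2 it read 7.49 and 7.26, a difference of -0.23. The other 2 AMOTL2 probe sets lay below background on all 4 arrays, between 3.70 and 4.53, so the AMOTL2 values rest on 1 probe set.

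AMOTL1 had 4 probe sets, of which 3 were above background on both HCT116 arrays. The brightest read 7.54 with control and 6.89 with BORIS siRNA, -0.65 apart. The other 2 read 7.98 and 6.58, a difference of -1.40, and 5.87 and 5.17, a difference of -0.70. The fourth lay below background on all 4 arrays. All 4 AMOTL1 probe sets were below background on both Caco-2 arrays, between 3.25 and 4.93. The HCT116 arrays were thus apart from the Caco-2 arrays at either siRNA, and the size of the siRNA difference varied from 1.57-fold to 2.63-fold between probe sets of this 1 gene.

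LATS2, the kinase that inactivates YAP, was above background in 1 of its 3 probe sets. That probe set read 8.20 with control and 7.73 with BORIS siRNA in HCT116, a difference of -0.47, and 6.76 and 7.03 in Caco-2, a difference of 0.27. Both HCT116 values were above both Caco-2 values. The other 2 LATS2 probe sets lay between 3.25 and 4.30, below background on every array.

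AXL encodes a receptor tyrosine kinase for the ligand GAS6. Its brightest probe set read 9.41 with control and 8.25 with BORIS siRNA in HCT116, a difference of -1.15 or 2.22-fold, and lay below background in Caco-2 at 3.66 and 3.71. Its second probe set read 5.28 and 5.09 in HCT116, where the second value lay below background, and 4.79 and 4.45 in Caco-2. AXL was therefore bright in 1 line alone, and its siRNA difference rests on 1 probe set.

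CRIM1 encodes a membrane protein that binds bone morphogenetic proteins. Its bright probe set read 8.24 with control and 7.33 with BORIS siRNA in HCT116, a difference of -0.91 or 1.88-fold. In Caco-2 it read 7.07 and 7.04, a difference of -0.023, and both values lay below those of HCT116. Of the other 2 probe sets, 1 was above background on the HCT116 control array alone, at 5.12 against 4.75 with BORIS siRNA, and 1 was below background on all arrays.

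NT5E, or CD73, is the cell surface enzyme that makes adenosine from AMP, and was the member whose siRNA differences lay farthest apart between the lines. Its brightest probe set read 8.33 with control and 9.28 with BORIS siRNA in Caco-2, a difference of 0.95 or 1.94-fold, and 9.27 and 8.73 in HCT116, a difference of -0.53 or 1.45-fold. The next read 7.29 and 8.19 in Caco-2, a difference of 0.89, and 8.08 and 7.51 in HCT116, a difference of -0.57. The third read 6.32 and 6.76 in Caco-2 and 6.66 and 6.26 in HCT116, differences of 0.43 and -0.40. All 3 probe sets of NT5E were above background on every array, higher with BORIS siRNA in Caco-2 and lower in HCT116.

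F3 encodes tissue factor, the membrane protein that starts blood coagulation. Its brightest probe set read 10.22 with control and 10.12 with BORIS siRNA in HCT116, a difference of -0.095, and 9.11 and 8.98 in Caco-2, a difference of -0.13. The others read 9.01 and 8.49, a difference of -0.52, and 8.03 and 7.42, a difference of -0.61, in HCT116. In Caco-2 these read 7.63 and 7.52, and 6.63 and 6.52. All 3 F3 probe sets were higher on both HCT116 arrays than on either Caco-2 array, and the brightest 1 showed the smallest siRNA difference in HCT116.

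By probe set, 20 of the 27 were above background on 1 or both HCT116 arrays. Of these 20, 18 were above background on both arrays, and all 18 were lower with BORIS siRNA. The other 2, of AXL and CRIM1, were above background with control siRNA alone, so their direction follows largely from the filter. Of all 25575 probe sets above background on 1 or both arrays, 54.3% were lower and 45.6% higher. At 2-fold or more 6 probe sets of 4 genes were lower, against 1.46% of all such probe sets. The differences of the 20 ran from -1.67 to -0.095 with a median of -0.59. The sign of each member with a value above background held after quantile normalization and after a loess correction of the arrays.

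In Caco-2 the same comparison gave no common direction. Of the 6 expressed members, 3 were lower and 3 higher, where 49.4% of 10389 expressed genes were lower by any amount and 50.5% higher. At 2-fold or more 0 of the 6 were lower, where the share over all expressed genes was 0.0481%, and 0 were higher, where it was 0.404%. NT5E at 0.95, LATS2 at 0.27 and CCN1 at 0.19 were on the higher side, and CRIM1 at -0.023, F3 at -0.13 and AMOTL2 at -0.23 on the lower. Their median was 0.083, against 0.0026 over all expressed genes. By probe set, 11 of the 27 were above background, all on both arrays, with 5 lower and 6 higher, where 46.8% of all such probe sets were lower and 53% higher. None of the 11 was lower at 2-fold or more, against 0.0871% of all such probe sets. CCN2, ANKRD1, AMOTL1 and AXL lay below background on both Caco-2 arrays.

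**Figure D3:**
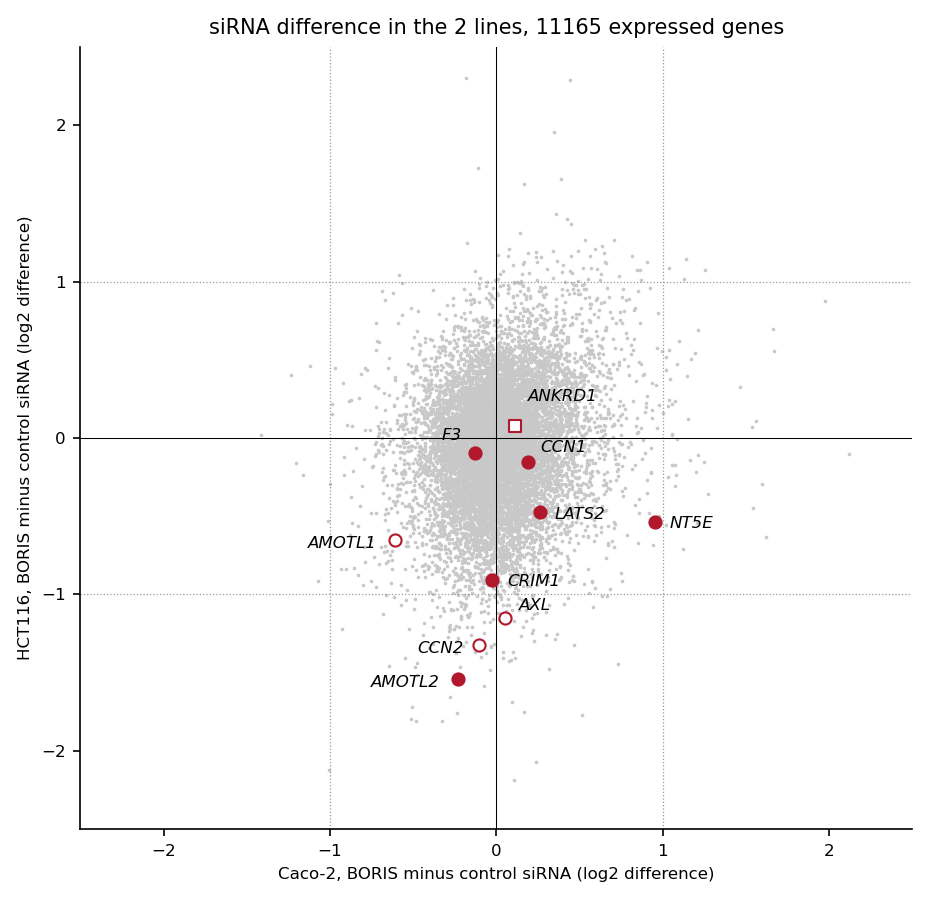
Log2 difference between BORIS and control siRNA in Caco-2 (horizontal axis) and HCT116 (vertical axis) of 11165 genes expressed in either line (grey) and the 10 members (red, brightest probe set). Filled circles are expressed in both lines, open circles in HCT116 alone and the square, ANKRD1, in neither; dotted lines mark 2-fold, and AMOTL2, CCN2 and AXL lie below the lower of them.

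The comparison of the lines asked how the targets stood in HCT116 against Caco-2 at the same siRNA. With control siRNA, 5 of the 6 members expressed in both lines were higher in HCT116. Of the 9 members expressed in either line 8 were higher, where 50.9% of the 11165 such genes were higher by any amount. CCN2, AMOTL1 and AXL were among the 8 and were expressed in HCT116 alone, so the filter fixed their direction. ANKRD1 was below background in both. AXL was higher by at least 4.36, or at least 20.5-fold, where the bound is the distance of the HCT116 value from the background level of the Caco-2 array. AMOTL1 was higher by at least 2.49 and CCN2 by at least 2.08. LATS2 was higher by 1.44 or 2.72-fold, CRIM1 by 1.17, F3 by 1.11 and NT5E by 0.94, AMOTL2 by 0.15, and CCN1 differed by -0.21.

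With BORIS siRNA the difference between lines was lower for 5 of the 6 members expressed in both, all except F3, while AXL, AMOTL1 and CCN2 have only bounds. AXL was higher in HCT116 by at least 3.46, AMOTL1 by at least 2.09 and CCN2 by at least 1.0. LATS2 was higher by 0.70 and CRIM1 by 0.28, while F3 stood at 1.14. NT5E changed sides, from 0.94 to -0.54, and AMOTL2 from 0.15 to -1.17. CCN1 stood at -0.55. The median over these 6 was 1.03 with control and -0.13 with BORIS siRNA. Averaged over the siRNAs, the median difference of the 9 members expressed in either line was 1.07. Over all 11165 genes it was 0.014, and 10.1% of these were higher in HCT116 at 2-fold or more. The 9 include AXL, AMOTL1 and CCN2, which passed the filter through HCT116 alone, so nothing is read from this median.

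**Figure D4:**
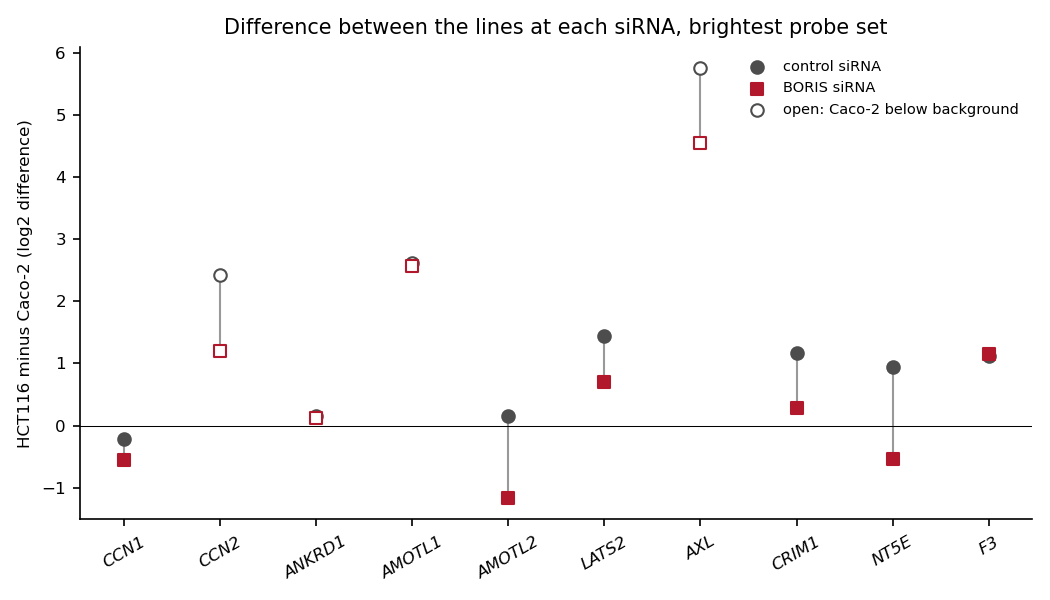
Log2 difference between HCT116 and Caco-2 (vertical axis) of the brightest probe set of each gene (horizontal axis), with control siRNA (grey circles) and with BORIS siRNA (red squares); open symbols mark genes below background in Caco-2, whose plotted difference uses the value as deposited. AMOTL2 and NT5E lie above 0 with control and below 0 with BORIS siRNA. The brightest probe set of F3 hardly moves, while its other 2, not drawn, were lower with BORIS siRNA.

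Put the other way, the siRNA difference was lower in HCT116 than in Caco-2 for 5 of the 6 members expressed in both lines, where this held for 56% of the 9855 such genes. The distance between the 2 differences was -1.49 for NT5E, -1.31 for AMOTL2, -0.89 for CRIM1, -0.74 for LATS2 and -0.34 for CCN1. F3 stood at 0.031 by its brightest probe set and at -0.41 and -0.49 by its other 2. With 1 array a group the fit has no term left to test a difference between the lines' siRNA effects, and it was not tested. Less RNA per cell and fewer cells that make it cannot be told apart in these bulk samples.

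Other genes of the pathway were described from 4 lists, 3 of upstream regulators and coactivators and 1 of 13 further targets, with 51 of 52 genes measured and 38 expressed. For these genes the difference between lines was tested with limma over all 11165 expressed genes, with siRNA as a block and 2 arrays a line, at an adjusted p under 0.05. Of the 38, 12 were higher and 3 lower in HCT116, together 39.5%, where 39.2% of all genes passed, 19.4% as higher and 19.8% as lower. These genes thus passed about as often as other genes. With BORIS siRNA, 34 of the 38 were lower in HCT116, where 55.4% of expressed genes were. In Caco-2 11 of 37 were lower and 26 higher, where 50.5% of expressed genes were higher. These lists, like those compared further below, were chosen with earlier results of these data known. Their tests and counts are therefore given as a description.

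YAP1 itself, the coactivator, read 10.44 with control and 10.38 with BORIS siRNA in HCT116 and 10.06 and 10.40 in Caco-2. WWTR1, which encodes TAZ, read 9.78 and 9.32 in HCT116 and 7.83 and 8.37 in Caco-2, and was higher in HCT116 by 1.45 with a standard error of 0.26 (limma adjusted p = 0.0064). Its siRNA difference was -0.46 in HCT116 and 0.55 in Caco-2. The DNA-binding partners TEAD1, TEAD2, TEAD3 and TEAD4 differed between siRNAs by -0.58, -0.15, -0.35 and -0.14 in HCT116, and by 0.17, 0.34, 0.07 and -0.42 in Caco-2. TEAD4 was lower in HCT116 than in Caco-2 by a log2 difference of -0.67 (limma adjusted p = 0.028). The TEAD competitor VGLL4 differed between siRNAs by -0.27 in HCT116 and 0.29 in Caco-2. Of the 9 genes of this list 7 were expressed. All 7 were lower in HCT116, where 55.4% of expressed genes were. In Caco-2 6 of 7 were higher, where 50.5% of expressed genes were.

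In the kinase core and its activators, 14 of 15 genes were expressed in HCT116. All 14 were lower with BORIS siRNA, where 55.4% of expressed genes were, with a median of -0.39. WWC3, a scaffold of the KIBRA family, read 7.20 and 5.86 in HCT116, a difference of -1.33, the 1 gene of this list at 2-fold or more, and 5.30 and 5.27 in Caco-2. SAV1, the scaffold of the Hippo kinases, differed by -0.94 in HCT116 and -0.57 in Caco-2. NF2, or merlin, differed by -0.94 and 0.08, and the kinase gene STK4 by -0.56 and -0.07. LATS1, the paralog of LATS2, lay below background on all 4 arrays, at 3.35 to 3.44. Higher in HCT116 than in Caco-2 by the limma test were SAV1 by 1.82, FRMD6 by 1.57, STK3 by 1.45, WWC3 by 1.24, MOB1B by 1.12 and WWC2 by 0.83, and 0 genes of this list were lower.

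Among junction and polarity regulators, 12 genes were expressed in HCT116, with 8 lower and 4 higher with BORIS siRNA and a median of -0.42. Of all expressed genes 55.4% were lower and 44.5% higher. The polarity gene LLGL1 differed by -0.77, the LIM protein gene AJUBA by -0.63, the atypical cadherin gene FAT1 by -0.62 and the tight junction gene TJP1 by -0.62. In Caco-2 LLGL1 differed by 0.03, AJUBA by -0.18, FAT1 by 0.52 and TJP1 by 0.24. FAT1 and AJUBA passed the limma test as higher in HCT116, by 1.47 and 0.95. AMOT, the paralog of the 2 angiomotin-like members, and PATJ passed as lower, at -1.22 and -0.80. AMOT read 5.95 and 5.35 in HCT116 and 6.65 and 7.08 in Caco-2, while the brightest probe set of AMOTL1 was above background in HCT116 alone.

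Of 13 other genes of a widely used YAP/TAZ target signature, 5 were expressed, and 8 were not expressed in either line. All 5 were lower with BORIS siRNA in HCT116, with a median of -0.62, and none at 2-fold. Of all expressed genes 55.4% were lower by any amount and 1.45% at 2-fold or more. ASAP1 differed by -0.92, DOCK5 by -0.62, FJX1 by -0.62, MYOF by -0.33 and GADD45A by -0.30 in HCT116. In Caco-2 they differed by 0.01, 0.34, -0.15, -0.04 and 0.10, with a median of 0.011. MYOF, GADD45A and DOCK5 passed the limma test as higher in HCT116, by 1.78, 1.25 and 1.0 with standard errors of 0.16, 0.17 and 0.26. ASAP1 and FJX1 did not pass, at differences of -0.34 and -0.19.

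No gene of these 4 lists passed the limma test of a siRNA effect shared by both lines, with cell line as a block, where 0 of all 11165 genes did and 1 of the 38 pathway genes had an unadjusted p under 0.05. After quantile normalization SAV1 passed, with a limma adjusted p of 0.041, as did 82 of all genes. After the loess correction 57 of all genes passed and no gene of these lists. Over the alternatives the lowest limma adjusted p in these lists ranged from 0.041 to 0.87. The fit has 1 residual degree of freedom a gene, and its residual is the disagreement between the lines.

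**Figure D5:**
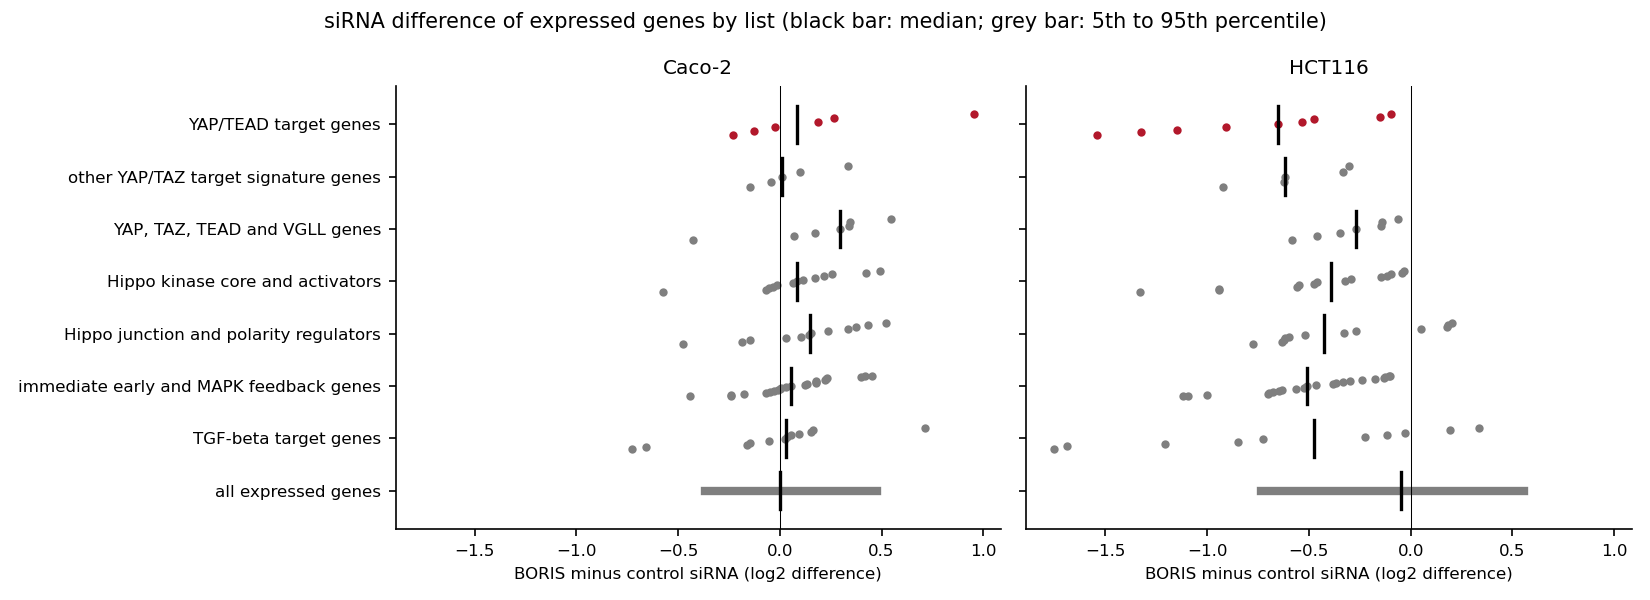
Log2 difference between BORIS and control siRNA (horizontal axis) of each expressed gene of the 10 members (red) and 6 other lists (grey) in Caco-2 and HCT116, with list medians in black; the bottom bar spans the 5th to 95th percentile of all expressed genes. In HCT116 the members' median is -0.65 and every point lies below 0, as it does for the signature, the coactivator, the kinase and the immediate early lists, while in Caco-2 the members lie on both sides of 0.

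The members overlap in known regulation with 2 other groups of genes. Immediate early and MAPK feedback genes, transcribed within minutes of growth factor signals, were lower with BORIS siRNA in HCT116 in 23 of 23 expressed cases, where 55.4% of expressed genes were lower, with a median of -0.51. Among them were DUSP5 at -1.12, EGR1 at -1.09, SPRY4 at -1.0 and ETV4 at -0.70. For TGF-beta target genes the median was -0.47, with 8 of 10 lower and 3 at 2-fold or more, where 1.45% of expressed genes were. These were SMAD6 at -1.64 or lower and SKIL at -1.03 or lower, both below background with BORIS siRNA, and ID2 at -1.21, followed by SKI at -0.85. In Caco-2 the medians of these lists were 0.053 and 0.031. Whether the members differ from either group was not tested.

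The genes whose values over the 4 arrays lay nearest to those of CCN2 were found by the Euclidean distance of values centred on each gene's mean, over 11164 other genes. They were CDCP1 at a distance of 0.14, DUSP5 at 0.20, CCND1 at 0.20, OLFML2A at 0.25 and CHST6 at 0.25. CDCP1, a membrane glycoprotein gene, read 7.76 and 7.69 in Caco-2 and 10.36 and 8.98 in HCT116. CCND1, the G1 cyclin gene, read 10.24 and 9.96 in Caco-2 and 12.47 and 11.37 in HCT116. Of the other members, AMOTL1 was nearest to CCN2 at a distance of 0.98 (rank 345), followed by LATS2 at 0.98 (rank 352), F3 at 1.10, CRIM1 at 1.12, NT5E at 1.86, AMOTL2 at 2.32, CCN1 at 2.35 and AXL at 3.34. Both Caco-2 values of CCN2 lay below background, as did those of AMOTL1, AXL, OLFML2A and CHST6. CHST6 also lay below background in HCT116 with BORIS siRNA, at 5.04. The distances rest on all these values as deposited.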

How the data were processed

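Total RNA of 4 samples was hybridised to PrimeView arrays after labelling with a 3' in vitro transcription kit, per the labels' protocols. The authors deposited log2 expression values per probe set, a unit read from their range of 2.13 to 14.17. How background was corrected, arrays normalized and probes summarised is not given in these sources. Probe sets were named through the platform annotation, where 44988 of 49395 had 1 gene, 1832 several and 2473 none, beside 102 controls. Symbols were checked by Entrez ID against RefSeq (GRCh38.p14), which changed 0.

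Members were described without a test. Named genes were all members, CTCFL, YAP1, WWTR1, the TEAD genes and LATS1, and per list the up to 4 with the largest HCT116 siRNA difference and those past the line test, together with the 5 genes nearest to CCN2. The members and lists were chosen with earlier results of these data known. The other pathway genes went through limma 3.58.1 under R 4.3.3 (lmFit, eBayes with trend, cell line and siRNA as terms, Benjamini-Hochberg over all expressed genes), tested on simulated data. Alternatives were the mean of all probe sets, leaving out cross-matching probe sets (_x_at and _s_at), loess (span 0.3) or quantile normalization of the arrays, 16 added on the linear scale, no filter, and a filter at background.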

Additional observations from a re-analysis of the deposited data

Results flagged for a closer look

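For 3 members every probe set above background on all 4 arrays was higher with BORIS siRNA in Caco-2 and lower in HCT116. The HCT116 difference minus the Caco-2 difference of the brightest probe set was -1.49 for NT5E, with 3 such probe sets, -0.74 for LATS2, with 1, and -0.34 for CCN1, with 2. These differences between the lines were not tested, as each group held 1 array.

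Outside the gene measurements, the median of the poly-A spike-ins in HCT116 differed by 0.94 between siRNAs, with the BORIS array the higher in 24 of 24 probe sets. For the hybridisation controls this difference was 0.41.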

How the results depend on the processing

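In HCT116 the members' median kept its sign under all 7 alternatives, from -0.65 to -0.50, and so did the median line difference, from 0.90 to 1.15. The Caco-2 median of 0.083 stood at 0.31 with the mean of all probe sets, where 3 members were expressed, 0.031 after quantile normalization and 0.014 without a filter. Genes lower at 2-fold or more in HCT116, 154 as deposited, numbered 55 with the mean of all probe sets and 85 with 16 added, and in Caco-2, 5 as deposited, 1 with 16 added and 9 without a filter. Pathway genes past the test of a siRNA effect shared by the lines, with cell line as a block, numbered 0, and 1, SAV1, after quantile normalization. Of all genes 82 passed after quantile normalization and 57 after the loess correction, against 0 as deposited. Pathway genes past the line test numbered 11 to 16. Over the 5 alternatives that change a member's value, the sign of single members held in 50 of 50 comparisons in HCT116 and 48 of 50 in Caco-2, while 10 and 15 values moved by over 1.5 times. The exceptions were CCN2 and AXL, below background there, with the mean of all probe sets. Some of these comparisons could not have changed a sign. Adding 16 keeps the sign of a probe set's difference, and leaving out cross-matching probe sets changed the value of CCN2 alone. The comparisons also include ANKRD1, which lay below background on every array. No paired analysis was possible because the labels give no replicate numbers, other than the fit above with cell line as a block, and with 1 array a group none could be left out. Members near background, such as CCN2 in Caco-2, could not be followed downward.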
